A study of Mus musculus with 9 samples.

Results

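The immediate early genes followed here were Egr1, Egr2, Egr3, Nab1, Nab2, Fos, Fosb, Ier2, Ier3 and Srf, chosen by symbol as textbook outputs or regulators of the ERK pathway. They make 10 of the 37022 genes with a row in the deposited tables, and 8 of the 10 passed a filter on low signal that left 15942 genes for testing. Egr3 and Fosb did not pass and are given as values only. The 9 libraries measured nascent RNA in CD8+ T cells of the mouse, lymphocytes that kill infected or malignant cells. Cells took up 5-ethynyl uridine at 0.2 mM for 30 minutes, a uridine analogue that marks RNA made in that time, and the marked RNA was captured and sequenced.

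The labels name 3 groups of 3 libraries. Acute libraries came from acutely stimulated cells, Chronic libraries from chronically stimulated cells, and ChronicMEKi libraries from chronically stimulated cells in which MEK was inhibited. The labels give neither the stimulus, its duration, the inhibitor nor a strain or genotype. They do not say that replicates came from separate animals or cultures, so p-values measure the spread between these libraries, which may be technical. Chronic against Acute asks how nascent transcription differs with the kind of stimulation, ChronicMEKi against Chronic what MEK inhibition changes, and ChronicMEKi against Acute how far apart the inhibited and the acutely stimulated cells are. The comparisons share groups, so they are not independent of each other, and each one's values are given side by side.

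As background, stimulation of the T cell receptor activates the kinases RAF, MEK and ERK in turn. ERK phosphorylates ternary complex factors of the ETS family, which sit with serum response factor (SRF) on CArG boxes and switch on immediate early genes within minutes, with no new protein needed. The early growth response (EGR) proteins are zinc finger transcription factors; in T cells EGR2 and EGR3 are also induced through calcium and NFAT and are known for restraining activation, and NAB1 and NAB2 are co-repressors that bind EGR proteins. FOS and FOSB pair with JUN proteins to form the AP-1 transcription factor.

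Egr2, Ier3, Fos and Egr1 had the largest differences between groups among the 8 genes tested. Egr2 rose 11.8-fold and Ier3 9.69-fold in Chronic over Acute libraries (n = 3 each), and both fell with MEK inhibition, Egr2 by 10.8-fold and Ier3 by 3.42-fold. Egr1 fell 1.80-fold in Chronic below Acute libraries and a further 8.31-fold with MEK inhibition. Fos was 12.6-fold lower in Chronic than in Acute libraries. It passed the low-signal filter only through its Acute libraries, so that difference was bound to appear. It was not called between the chronic groups. Nab1 fell in Chronic libraries and rose with MEK inhibition, while Nab2, Ier2 and Srf were not called in the gene body in any comparison. These folds are ratios of group means of scaled gene-body signal; the tests below ran on log2(signal + 5), where the changes of weak genes are understated.

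The stretches before the transcription start are shown here for Egr2 and Ier3, the members that rose in Chronic libraries, for Fos, which fell, and for Srf, the factor that binds CArG boxes. Each line gives the 250 bases before a RefSeq start in GRCm38.p6, 5′ to 3′ on the gene's strand, and capitals mark matches to the CArG box. Egr2 is chr10:67537619-67537868 on the plus strand, Ier3 chr17:35821463-35821712 plus, Fos chr12:85473640-85473889 plus, and Srf chr17:46556163-46556412 minus.
Egr2: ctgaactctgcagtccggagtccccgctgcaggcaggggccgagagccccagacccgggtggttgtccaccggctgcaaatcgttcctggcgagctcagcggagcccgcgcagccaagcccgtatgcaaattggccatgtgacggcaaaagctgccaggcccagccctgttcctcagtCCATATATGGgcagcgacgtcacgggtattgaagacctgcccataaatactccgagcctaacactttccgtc
Ier3: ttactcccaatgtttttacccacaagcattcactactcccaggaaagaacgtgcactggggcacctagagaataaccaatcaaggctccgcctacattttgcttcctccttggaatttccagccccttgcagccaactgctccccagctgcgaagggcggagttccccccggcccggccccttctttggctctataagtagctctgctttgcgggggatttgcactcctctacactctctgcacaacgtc
Fos: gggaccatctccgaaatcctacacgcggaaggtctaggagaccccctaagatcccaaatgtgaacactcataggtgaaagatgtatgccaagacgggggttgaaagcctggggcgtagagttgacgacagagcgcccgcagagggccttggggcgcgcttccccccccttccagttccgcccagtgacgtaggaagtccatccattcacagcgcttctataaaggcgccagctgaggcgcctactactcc
Srf: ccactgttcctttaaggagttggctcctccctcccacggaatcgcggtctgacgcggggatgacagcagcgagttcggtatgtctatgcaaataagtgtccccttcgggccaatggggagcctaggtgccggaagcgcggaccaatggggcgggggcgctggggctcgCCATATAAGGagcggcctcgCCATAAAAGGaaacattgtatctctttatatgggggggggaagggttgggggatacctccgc
Egr2 held the CArG box CCATATATGG, starting 72 bases before its start, and Srf held CCATATAAGG at 82 and CCATAAAAGG at 62 bases before its start. The Ier3 and Fos stretches held none; the well-known serum response element of Fos lies further upstream than this window. Of 32851 RefSeq promoter windows of the same kind (250 bases before to 50 after the start), 1.63% held a CArG box.

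In all, 7 of the 10 members matched a RefSeq promoter, in 11 windows, 5 of them for Egr2; Egr1, Egr3 and Ier2 had no entry. Besides the CArG box, 4 motifs were searched on both strands: an EGR site (GCGTGGGCG or GCGGGGGCG), the ETS core CCGGAA, the CRE TGACGTCA and the AP-1 site TGACTCA or TGAGTCA. All windows held these in 3.47%, 14.9%, 1.79% and 5.20% of cases. Nab1 held EGR matches at 141 (CGCCCACGC), 109 (GCGTGGGCG) and 38 (GCGGGGGCG) bases before its start, Srf 1 at 101 and Fosb 1 at 50, both GCGGGGGCG. Srf also held an ETS core at 122 bases. Another Egr2 window, whose start lies upstream of the one printed, held the CArG box CCTTTTTTGG at 72 bases and ETS cores at 131, 129 and 48, of which the pair at 131 and 129 overlap each other. The windows of Fos, Ier3 and Nab2 held none of the 5 motifs, which says only that these letters are not in those windows. A match is a description of sequence, and binding of any factor was not measured.

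**Figure D1:**
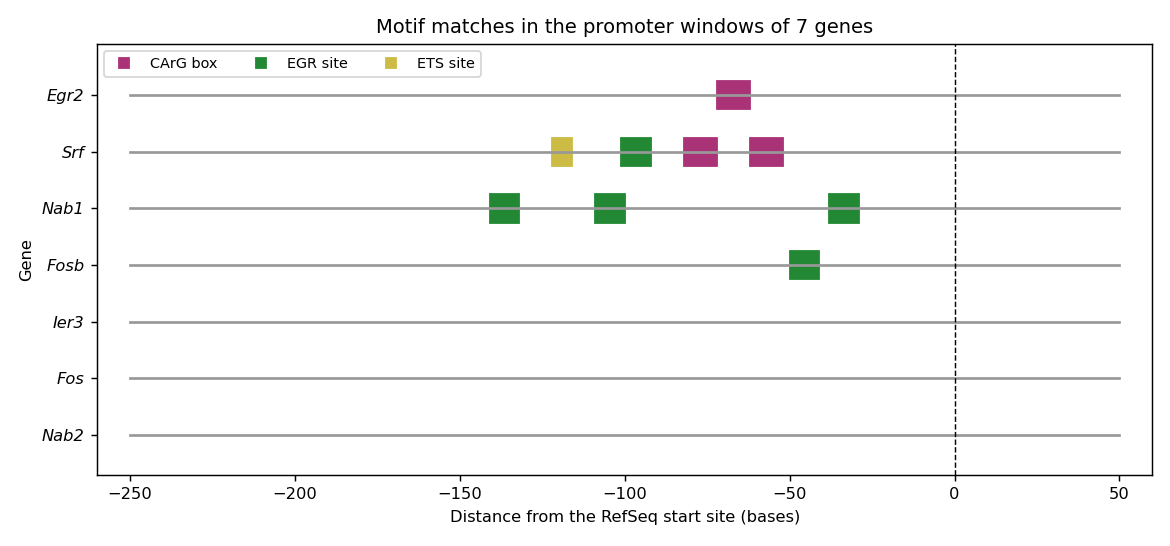
Position of motif matches in the RefSeq promoter windows of the members, in bases from the transcription start, with 1 row per gene (for Egr2 the window printed above) and 1 colour per motif. Egr2 and Srf hold CArG boxes, Nab1 holds 3 EGR matches, and Fos, Ier3 and Nab2 hold none of the 5 motifs.

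The libraries separated by group. Total deposited gene-body signal per library was 4.95e+07 ± 1.18e+06 for Acute, 5.01e+07 ± 6.17e+05 for Chronic and 5.09e+07 ± 1.14e+06 for ChronicMEKi (SD, n = 3 each), in the authors' scaled units, and depth in reads is unknown. Correlations across genes between libraries of 1 group were 0.959 to 0.984, against 0.910 to 0.954 between groups. A locus resembling ribosomal RNA took 19.1% to 22.3% of the signal in Acute, 34.2% to 40.6% in Chronic and 29.0% to 36.1% in ChronicMEKi libraries. Differences below are set against a trimmed mean over the tested genes, and scaling to library totals instead would shift the median gene by -0.48 (log2) in Chronic against Acute, 0.10 in ChronicMEKi against Chronic and -0.38 in ChronicMEKi against Acute. Of 7 CD8 T cell markers, all were detected; their summed signal was 25113 to 29073 in Acute, 17020 to 18045 in Chronic and 21499 to 23339 in ChronicMEKi libraries. Of the markers of other cells, Lyz2, Cd14 and Ncr1 were near 0, but others were present. The B cell genes Cd79a and Pax5 had means of 335 and 154 in Acute, 106 and 72.3 in Chronic and 153 and 109 in ChronicMEKi libraries, and Cd79a was lower in Chronic than in Acute (-1.69, adjusted p = 0.00225) and in ChronicMEKi than in Acute (-1.22, adjusted p = 0.0261). Cd4 had means of 442, 234 and 116 and Zbtb7b, the factor of the CD4 lineage, 789, 1002 and 1769 in that order of groups. Eomes, which NK cells and CD8 T cells both use, had 1324, 1409.7 and 1583. The summed signal of 6 myeloid markers was 273 to 320 in Acute, 215 to 248 in Chronic and 164 to 357 in ChronicMEKi libraries. The part of all these markers in the results was not tested. Cd8a itself was lower in Chronic than in Acute libraries by 2.07 on the log2 scale and 1.58 higher in ChronicMEKi than in Chronic libraries. In these bulk libraries, fewer cells making a transcript and less of it per cell cannot be told apart.

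**Figure D2:**
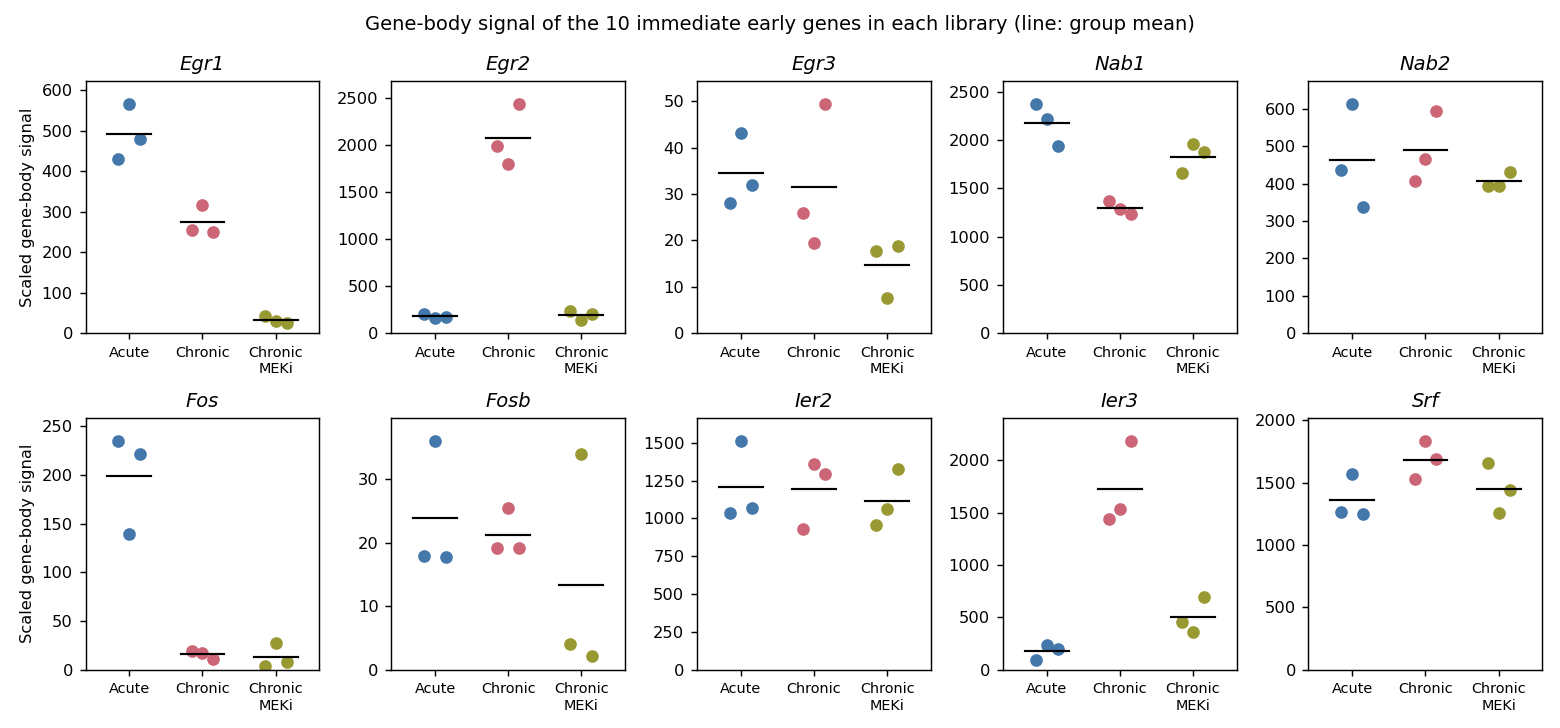
Scaled gene-body signal of the 10 members on linear axes that start at 0, 1 panel and 1 scale per gene, with 1 point per library and a line at each group mean (n = 3). The Chronic libraries of Egr2 and Ier3 lie above all others, the ChronicMEKi libraries of Egr1 below all others, and the Acute libraries of Fos above all others.

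Egr2, the EGR factor tied to anergy and restraint in T cells, showed the largest rise among the members tested. The row used starts at the promoter printed above (GRCm38 chromosome 10, 67537869 to 67542188, plus strand, 2 exons). Its scaled gene-body signal was 202, 159 and 168 in the 3 Acute libraries, 1989, 1801 and 2435 in the Chronic libraries and 231, 142 and 202 in the ChronicMEKi libraries. Every Chronic library stood apart on the high side, and the other two groups overlapped. Chronic exceeded Acute by 3.52 on the log2 scale (SE 0.22, 95% confidence interval 3.06 to 3.98, adjusted p = 6.24e-10), and ChronicMEKi was below Chronic (-3.42, interval -3.88 to -2.96, adjusted p = 3.23e-09). ChronicMEKi against Acute gave 0.10 (interval -0.36 to 0.56, adjusted p = 0.790), and the sign of that value turned under 3 other scalings.

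The annotation has 6 Egr2 rows with a value. Over them the difference of gene-body signal on the log2 scale ran from 2.80 to 3.53 for Chronic against Acute, from -3.42 to -3.27 for ChronicMEKi against Chronic, and from -0.63 to 0.13 for ChronicMEKi against Acute. The rows share exons, so they are not independent measurements. A row that starts further upstream, at 67535475, had gene-body signal of 78.1, 82.6 and 82.2 in Acute, 798, 844 and 939.7 in Chronic and 143, 72.1 and 52.1 in ChronicMEKi libraries. The pause-region signal of that same row was 26.5, 33.2 and 13.8 in Acute, 209, 159 and 190.2 in Chronic and 18.2, 15.1 and 45.9 in ChronicMEKi libraries. In both regions the Chronic libraries lay above all others. The longest Egr2 row is a different one, which starts at 67535583. With longest rows in place of the strongest, Egr2 passed the low-signal filter in the pause region only through its Chronic libraries. A difference of Chronic from the other groups was thus bound to appear there. By limma it was 2.61 (SE 0.49, adjusted p = 0.000446) in Chronic over Acute and -2.56 (adjusted p = 0.00163) in ChronicMEKi against Chronic.

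**Figure D3:**
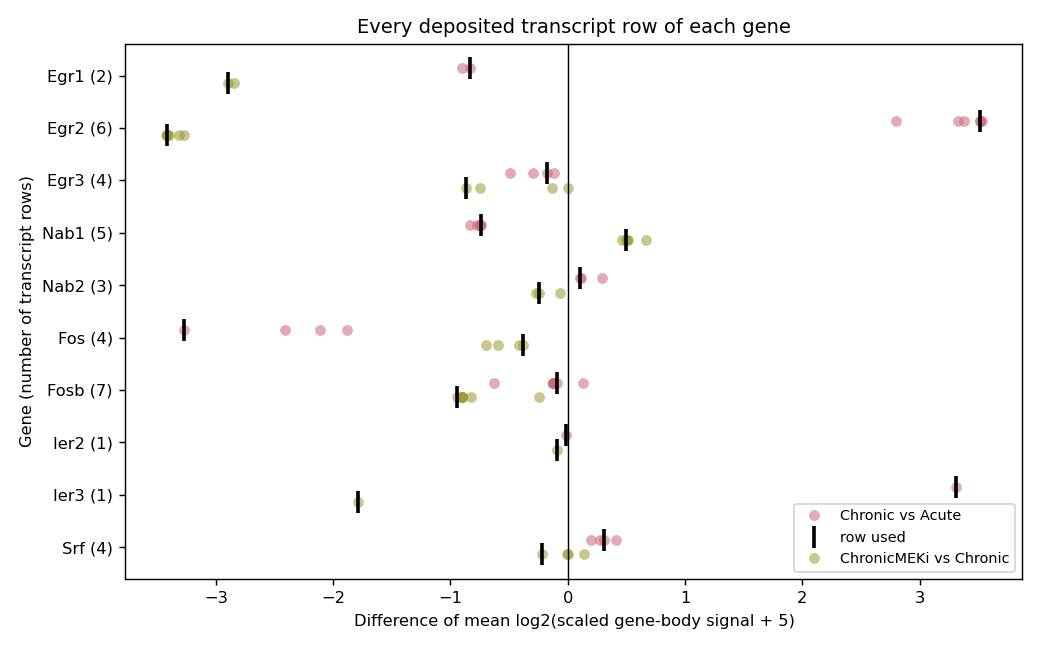
Difference of log2(gene-body signal + 5) between groups for each annotated row of the members, 1 point per row, for Chronic against Acute (red) and ChronicMEKi against Chronic (olive), with a black tick at the row used in the tests and the number of rows beside each gene. The Egr2 rows lie between 2.80 and 3.53 in Chronic against Acute; rows of 1 gene share exons.

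Egr1, the founding EGR factor and a direct output of ERK through SRF, went the other way between stimulations. It lies on GRCm38 chromosome 18, 34859823 to 34864984, plus strand, with 2 exons. Its signal was 430.3, 566 and 480.4 in Acute, 255, 316 and 251 in Chronic and 43.3, 30.6 and 24.997 in ChronicMEKi libraries. The 3 groups formed a ladder with no overlap at either step. The fall with MEK inhibition was 2.90 on the log2 scale (interval -3.52 to -2.28, adjusted p = 9.41e-07), and ChronicMEKi lay below Acute by 3.73 (adjusted p = 2.78e-08). The difference of Chronic from Acute was smaller, at -0.83 (SE 0.29, interval -1.45 to -0.22, adjusted p = 0.0352). That call was lost with no filter on low signal (adjusted p = 0.102), with the filter set after scaling (0.0510) and when any of the Acute libraries or the first or the third Chronic library was left out (0.0605 to 0.1204).

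The ratio of Egr2 to Egr1 per kilobase of annotated span was formed after both genes had been read, so it restates their values and is given with no test. It was 0.560, 0.335 and 0.417 in Acute libraries, 9.33, 6.82 and 11.6 in Chronic libraries and 6.39, 5.54 and 9.66 in ChronicMEKi libraries. Every library of both chronic groups exceeded every Acute library, and the chronic groups overlapped each other. The means were 0.437 ± 0.114, 9.25 ± 2.40 and 7.20 ± 2.17 (SD, n = 3 each), a log2 difference of 4.40 for Chronic against Acute, 4.03 for ChronicMEKi against Acute and -0.37 for ChronicMEKi against Chronic. A ratio shows unequal change and not which gene moved.

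Egr3, the close relative of Egr2, was weak in all groups (GRCm38 chromosome 14, 70077314 to 70082550, plus strand). Its signal was 28.2, 43.3 and 31.9 in Acute, 25.9, 19.4 and 49.5 in Chronic and 17.6, 7.64 and 18.7 in ChronicMEKi libraries. The Chronic libraries spanned the Acute range. Every ChronicMEKi library lay below every other library, but only by 18.7 against 19.4 at the closest. On the deposited scale the second Chronic library (16.5) lay below the first ChronicMEKi library (17.9). Egr3 was not tested. Its mean per kilobase was 6.58 in Acute, 6.03 in Chronic and 2.80 in ChronicMEKi libraries, against 40.8, 480.3 and 44.4 for Egr2.

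Nab1, an EGR co-repressor, had the mirror image of the Egr2 pattern at a smaller size. The gene runs over GRCm38 chromosome 1, 52457294 to 52500679, minus strand, with 8 exons. Its signal was 2375, 2219.6 and 1943 in Acute, 1365, 1284 and 1239 in Chronic and 1657, 1957 and 1873 in ChronicMEKi libraries. The Chronic libraries were the lowest with no overlap, whereas 1 ChronicMEKi library exceeded 1 Acute library. Chronic fell below Acute by 0.74 on the log2 scale (SE 0.12, interval -0.99 to -0.50, adjusted p = 6.29e-05), and ChronicMEKi rose over Chronic by 0.49 (interval 0.25 to 0.74, adjusted p = 0.00551). The value between ChronicMEKi and Acute was -0.25 (interval -0.50 to -0.01, adjusted p = 0.129). That value was called under 3 other scalings and without the third Acute library (-0.63 to -0.39), and the rise with MEK inhibition was lost with no filter on low signal (0.42, adjusted p = 0.130).

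Nab2, the other co-repressor and itself a known EGR target, showed no called difference. Its signal was 437, 614 and 338 in Acute, 408, 466 and 596 in Chronic and 394, 395 and 431 in ChronicMEKi libraries, and all 3 groups overlapped. The log2 differences were 0.11 (interval -0.37 to 0.58) for Chronic against Acute, -0.25 (-0.72 to 0.22) for ChronicMEKi against Chronic and -0.14 (-0.62 to 0.33) for ChronicMEKi against Acute, with adjusted p of 0.751, 0.530 and 0.695. The Nab2 row (GRCm38 chromosome 10, 127660918 to 127666710, minus strand, 7 exons) overlaps Stat6 on the opposite strand, and the use of strand in counting is not given in the sources used here, so reads of the pair cannot be told apart. Stat6, a signal transducer of interleukin 4, was not called either (-0.08, 0.27 and 0.19 in the same order).

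Fos, the AP-1 subunit, was found mainly in Acute libraries. It lies on GRCm38 chromosome 12, 85473890 to 85477273, plus strand, with 4 exons. Its signal was 235, 139 and 222 in Acute, 19.2, 16.9 and 11.2 in Chronic and 4.01, 27.2 and 8.33 in ChronicMEKi libraries. The Acute libraries stood far above both other groups, which overlapped each other. Fos passed the low-signal filter only through its Acute libraries, so a difference from Acute was bound to appear: -3.28 (SE 0.60, interval -4.55 to -2.01, adjusted p = 0.000331) in Chronic and -3.66 (interval -4.93 to -2.39, adjusted p = 0.000163) in ChronicMEKi libraries. Leaving out any Acute library took Fos below the filter. Between the chronic groups the value was -0.39 with a wide interval of -1.66 to 0.88 (adjusted p = 0.749), so a change was not detectable at these signal levels.

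Fosb, a relative of Fos, was weak in every group and was not tested (GRCm38 chromosome 7, 19302696 to 19310051, minus strand). Its signal was 17.9, 36.1 and 17.7 in Acute, 19.2, 25.4 and 19.1 in Chronic and 4.01, 33.9 and 2.08 in ChronicMEKi libraries. The first and the third ChronicMEKi libraries lay below all others, while the second, also the highest of its group for Fos, lay within the range of the other groups.

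Ier3, a stress-inducible regulator of cell survival also known as IEX-1, rose in Chronic libraries and lay in between under MEK inhibition. The gene is compact (GRCm38 chromosome 17, 35821684 to 35822923, plus strand, 2 exons). Its signal was 96.0, 241 and 197 in Acute, 1442, 1538 and 2189 in Chronic and 457, 363 and 693 in ChronicMEKi libraries. The 3 groups did not overlap, with ChronicMEKi in the middle. Chronic exceeded Acute by 3.31 (SE 0.31, interval 2.65 to 3.98, adjusted p = 8.90e-07) and ChronicMEKi fell below Chronic by 1.79 (interval -2.45 to -1.12, adjusted p = 0.000746). ChronicMEKi lay above Acute by 1.52 (interval 0.86 to 2.19, adjusted p = 0.00197), 2.83-fold as a ratio of means.

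Ier2, a nuclear immediate early protein, had a high and even gene-body signal. It is a gene of 1 exon (GRCm38 chromosome 8, 84661331 to 84662852, minus strand). Its signal was 1038, 1514 and 1067 in Acute, 927, 1362 and 1292 in Chronic and 959, 1060.0 and 1325 in ChronicMEKi libraries, and the groups overlapped throughout. The log2 differences were -0.01 (interval -0.39 to 0.36), -0.09 (-0.47 to 0.29) and -0.11 (-0.48 to 0.27) for Chronic against Acute, ChronicMEKi against Chronic and ChronicMEKi against Acute, with adjusted p of 0.964, 0.806 and 0.722. Scaled to library totals, which moves the median gene as given above, Ier2 was called lower than Acute in both Chronic (-0.50) and ChronicMEKi (-0.49).

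Srf, the factor through which ERK reaches many of these genes, varied little. It lies on GRCm38 chromosome 17, 46548329 to 46556175, minus strand, with 7 exons, and a predicted gene overlaps it on the opposite strand. Its signal was 1268, 1574 and 1251 in Acute, 1529.8, 1838 and 1688 in Chronic and 1655, 1258 and 1440.5 in ChronicMEKi libraries. The Chronic libraries were mostly the highest, but the groups overlapped. The log2 differences were 0.31 (interval 0.02 to 0.59, adjusted p = 0.0894), -0.22 (-0.51 to 0.06, adjusted p = 0.314) and 0.09 (-0.20 to 0.37, adjusted p = 0.690) in the same order. The first was called without the second Acute library (0.42, adjusted p = 0.0260) and turned negative under 2 other scalings.

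Counted together, 5 of the 8 members tested were called between Chronic and Acute, 2 higher and 3 lower, where 33.9% of all 15942 genes were called (18.0% higher, 15.9% lower). Between ChronicMEKi and Chronic, 4 of 8 were called, 1 higher and 3 lower, against 17.6% of all genes (9.93% higher, 7.65% lower). Between ChronicMEKi and Acute, 3 of 8 were called, 1 higher and 2 lower, against 25.8% of all genes (14.4% higher, 11.5% lower). Fos, which passed the filter only through its Acute libraries, is 1 of the lower calls in both comparisons with Acute; without it 4 of 7 members were called in Chronic and 2 of 7 in ChronicMEKi against Acute. The groups did not overlap for the same numbers of members, 5, 4 and 3, where 44.2%, 32.2% and 42.0% of all genes did not overlap. The median log2 difference over the 8 members was 0.05, -0.32 and -0.12 in these comparisons, against -0.02, 0.04 and 0.00 over all genes tested. With 8 genes chosen with earlier results known, these shares describe the members and are no test of the group. Heat shock genes differed in the same comparisons: 9 of 9 tested rose in Chronic against Acute and 7 of 9 fell with MEK inhibition. Their part in the values of the members was not tested.

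**Figure D4:**
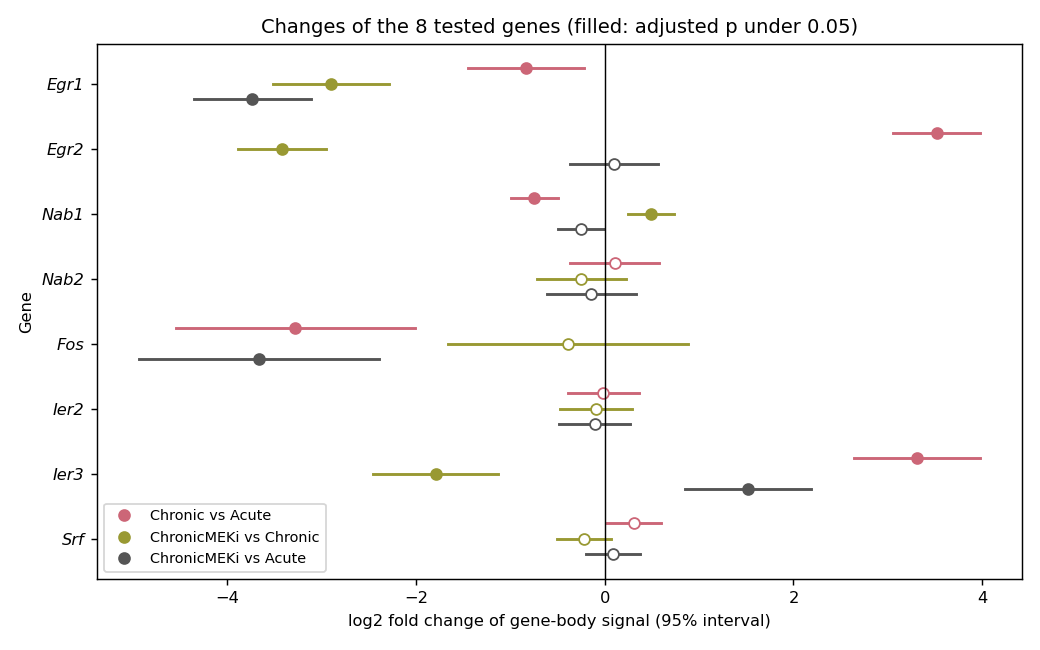
Difference of log2(gene-body signal + 5) with its 95% confidence interval for the 8 members tested, with 1 colour for each of the 3 comparisons and called differences filled. Egr2 and Ier3 lie above 3 in Chronic against Acute, Fos below -3, and Srf, Nab2 and Ier2 near 0.

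Levels per kilobase of annotated span put the genes on 1 scale, although the borders of the counted regions are not given in the sources used here. In Acute libraries Ier2 was highest (793 ± 175 signal per kb, SD, n = 3), followed by Srf (174 ± 23.2), Ier3 (143 ± 59.8), Egr1 (95.4 ± 13.3), Nab2 (79.9 ± 24.1), Fos (58.7 ± 15.4), Nab1 (50.2 ± 5.05) and Egr2 (40.8 ± 5.25). From Srf down, neighbours in that order differed by no more than the sum of their SDs. In Chronic libraries Ier3 led (1389 ± 328), then Ier2 (784 ± 153), Egr2 (480.3 ± 75.4), Srf (215), Nab2 (84.6), Egr1 (53.0), Nab1 (29.9) and Fos (4.66), each apart from its neighbours by more than that sum. In ChronicMEKi libraries the order was Ier2 (732), Ier3 (407 ± 137), Srf (185 ± 25.3), Nab2 (70.2), Egr2 (44.4 ± 10.6), Nab1 (42.2 ± 3.56), Egr1 (6.38 ± 1.81) and Fos (3.89), where Egr2 and Nab1, and Egr1 and Fos, were not apart beyond their spread. Egr2 was thus the lowest of the 8 in Acute and the third in Chronic libraries.

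The pause region, the stretch near the transcription start, gave enough signal to test 4 members: Nab2, Ier2, Ier3 and Srf. In Chronic against Acute 1 of the 4 was called, against 10.7% of 7678 genes, in ChronicMEKi against Chronic 1 of 4, against 3.0%, and in ChronicMEKi against Acute 2 of 4, against 5.95%. Groups did not overlap for 2, 1 and 2 of the 4, against 24.3%, 20.2% and 24.7% of genes. Ier3 pause-region signal was 108, 195 and 135 in Acute, 760.3, 1103 and 1326 in Chronic and 264, 248 and 343 in ChronicMEKi libraries, in the same order as its gene body and with no overlap. It rose by 2.83 (SE 0.24, adjusted p = 2.03e-09) in Chronic over Acute, fell by 1.86 (adjusted p = 9.41e-06) with MEK inhibition and lay 0.97 above Acute in ChronicMEKi libraries (adjusted p = 0.0142). The last call was lost under 3 of the settings tried and without the first Acute library (adjusted p = 0.101) or the third ChronicMEKi library (0.106).

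Ier2, even in its gene body, differed in its pause region. The signal there was 434, 542 and 618 in Acute, 252, 385 and 422 in Chronic and 218, 252 and 319.7 in ChronicMEKi libraries. Every Acute library was above every library of both chronic groups, which overlapped each other. ChronicMEKi fell below Acute by 1.00 (SE 0.23, interval -1.48 to -0.53, adjusted p = 0.00719), and Chronic against Acute gave -0.60 (SE 0.23, adjusted p = 0.1003), which was -1.20 and called with library totals (adjusted p = 0.00107). The call of ChronicMEKi against Acute was lost on the deposited scale (adjusted p = 0.0533), with no filter, with plain moderation (0.1001) and without the first ChronicMEKi library (0.0607).

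Nab2 and Srf were not called in the pause region. Nab2 had 91.8, 103 and 89.9 in Acute, 121, 60.7 and 72.4 in Chronic and 94.8, 97.5 and 48.8 in ChronicMEKi libraries, with overlap throughout. Srf had 23.0, 64.1 and 39.5, then 43.9, 10.5 and 61.4, then 50.4, 58.9 and 74.7 in the same order of groups, a spread wide enough to leave log2 differences of -0.26, 0.83 and 0.57 untold from 0 (adjusted p = 0.843, 0.574 and 0.638). The row used for Egr1 had pause-region signal of 1.98 to 37.4 and that for Fos 0 to 55.6, below the filter.

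Pausing, taken in each library as log2 pause-region signal minus log2 gene-body signal, was called for 0 of the 4 members and for 0.00% of 7413 genes in each comparison by limma, and with plain moderation too. At an unadjusted p under 0.05, 749, 394 and 591 genes (10.1%, 5.31% and 7.97%) and 0, 0 and 1 of the 4 members passed in Chronic against Acute, ChronicMEKi against Chronic and ChronicMEKi against Acute. That member was Ier2, with a difference of -0.90 in pausing (unadjusted p = 0.00697, adjusted p = 0.528).

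The nearest tested genes beside Egr2, Ier3 and Egr1 were read for their own differences. For Egr2 and Egr1 they cannot tell whether signal extended beyond the gene named. Ado and Etf1 lie on the opposite strand and the use of strand in counting is not given, while Reep2 lies before Egr1. Ado, which lies 2.32 kb past the end of Egr2 on the opposite strand, gave 0.31 (adjusted p = 0.0719) in Chronic against Acute and -0.29 (adjusted p = 0.137) in ChronicMEKi against Chronic, far from the values of Egr2. Flot1, 0.307 kb past Ier3, gave 0.48 (adjusted p = 0.0587) and 0.05 (adjusted p = 0.910) there, and rose by 0.52 (adjusted p = 0.0472) in ChronicMEKi over Acute libraries. Reep2, 12.4 kb before Egr1, was lower in Chronic than in Acute libraries (-1.18, adjusted p = 2.73e-06) and higher with MEK inhibition (0.67, adjusted p = 0.00208), the opposite sign to Egr1 in the second. Etf1, 37.8 kb past Egr1 on the opposite strand, was lower in Chronic than in Acute (-0.24, adjusted p = 0.0381) and in ChronicMEKi than in Acute libraries (-0.25, adjusted p = 0.0393), the sign of Egr1 at a smaller size, and gave -0.0097 between the chronic groups (adjusted p = 0.964).

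Other genes of the pathway were read from lists that hold none of the members. Among the genes that ERK induces to curb its own signal, 5 of 10 rose and 1 fell in Chronic against Acute, 8 of 10 fell and 0 rose with MEK inhibition, and 2 rose and 5 fell in ChronicMEKi against Acute. The share called was 60%, 80% and 70% in these comparisons, against 33.9%, 17.6% and 25.8% of all genes. The list's median log2 difference was 1.26, -1.95 and -0.95. The 2 rises in ChronicMEKi against Acute were of Dusp4 (0.70) and Dusp5 (0.47). Scaled to library totals, neither was called (adjusted p = 0.0733 and 0.628). Dusp5 was also not called on the deposited scale (0.464), with no filter, with plain moderation, or without the first or the third Acute library. Etv4 and Spry4 passed the low-signal filter only with the help of their Chronic libraries, so the filter favoured a difference from Chronic. Both count among the falls with MEK inhibition, and Etv4 also among the rises in Chronic against Acute. Dusp6, a phosphatase of ERK, read here as a check on the inhibition label, had a mean of 2505 ± 291 in Acute, 2395 ± 89.2 in Chronic and 204 ± 9.69 in ChronicMEKi libraries (SD, n = 3 each). It fell by 3.52 with MEK inhibition (adjusted p = 5.23e-12) and gave -0.06 between Chronic and Acute (adjusted p = 0.766). Etv5, an ETS factor, rose by 2.704 in Chronic libraries and fell by 3.80 with MEK inhibition; Spry2, an inhibitor of receptor signalling to ERK, rose by 1.93 and fell by 1.43. Its relative Spry1 fell by 1.45 in Chronic against Acute, and Spred1, of the same wider family, fell by 2.58 with MEK inhibition.

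Of 25 other immediate early genes, 24 were tested and Egr4 was near 0. In Chronic against Acute 13 rose and 3 fell, and with MEK inhibition 1 rose and 10 fell. In ChronicMEKi against Acute 10 rose and 6 fell. The shares called were 66.7%, 45.8% and 66.7%, against 33.9%, 17.6% and 25.8% of all genes. The median differences were 0.62, -0.49 and 0.35. Phlda1 rose by 3.23 in Chronic over Acute libraries and fell by 1.17 with MEK inhibition. Fosl1, an AP-1 subunit like Fos, rose by 2.08 and fell by 1.95, where Fos itself fell in Chronic libraries. Ier5, an immediate early gene of the same naming series as Ier2 and Ier3, rose by 0.59 and fell by 1.40. Nfkbiz, a regulator of NF-kB targets, fell by 1.32 in Chronic against Acute.

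Regulators upstream of the members were read next. Of 12 genes of the ERK cascade and of SRF or EGR control, 3 rose and 2 fell in Chronic against Acute, 2 rose and 1 fell with MEK inhibition, and 2 rose and 2 fell in ChronicMEKi against Acute. The shares called, 41.7%, 25% and 33.3%, were near those of all genes, 33.9%, 17.6% and 25.8%. Mapk3, which encodes ERK1, rose by 1.57 (adjusted p = 0.00129) in Chronic over Acute libraries. The ternary complex factor Elk4 fell by 0.78 there and rose by 0.35 with MEK inhibition (adjusted p = 0.00851). That rise was not called without the first ChronicMEKi library (0.0963), with no filter (0.226) or with the filter after scaling (0.128). Elk3, a relative of Elk4, fell by 0.59 with MEK inhibition. Rps6ka5, which encodes the ERK-activated kinase MSK1, rose by 1.101 in Chronic over Acute and by 1.65 in ChronicMEKi over Acute libraries. It rose by 0.55 with MEK inhibition (adjusted p = 0.00378), a call lost with no filter (0.0851).

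SRF also controls genes of the cytoskeleton. Of 14 such targets tested, 8 rose and 1 fell in Chronic against Acute, and 3 rose and 3 fell with MEK inhibition. In ChronicMEKi against Acute 8 rose and 0 fell. The shares called were 64.3%, 42.9% and 57.1%, against 33.9%, 17.6% and 25.8% of all genes. Zyx and Vcl, both proteins of focal adhesions, rose by 1.97 and 1.24 in Chronic over Acute libraries. With MEK inhibition they gave -0.49 and -0.63. Both calls were lost with library totals (adjusted p = 0.0959 and 0.0608), on the deposited scale (0.125 and 0.0691) and with no filter (0.119 and 0.0524). The Zyx call was also lost with plain moderation (0.113), and each call was lost when some single libraries were left out. Of 13 T cell genes associated with EGR2 and EGR3, 9 rose and 1 fell in Chronic against Acute, and 1 rose and 6 fell with MEK inhibition. In ChronicMEKi against Acute 4 rose and 2 fell. The shares called were 76.9%, 53.8% and 46.2%, against the same shares of all genes. Median log2 differences of this list were 0.89, 0.03 and 0.12, so the list as a whole did not fall with MEK inhibition. The gene that rose with MEK inhibition was Cdkn1a, by 0.48 to 0.59 with each library left out in turn. Its rise was not called with no filter (0.47). Cdkn1a was also higher in ChronicMEKi than in Acute libraries, by 1.84 to 2.08 with libraries left out. Tnfrsf9, a costimulatory receptor, rose by 2.96 and fell by 1.16 with MEK inhibition, whereas Lag3, an inhibitory receptor, rose by 2.22 and gave 0.06. Dgka, a diacylglycerol kinase that damps signalling to ERK, fell by 1.59 in Chronic against Acute, and Crtam, an adhesion receptor, rose by 0.88 and fell by 1.75 with MEK inhibition.

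**Figure D5:**
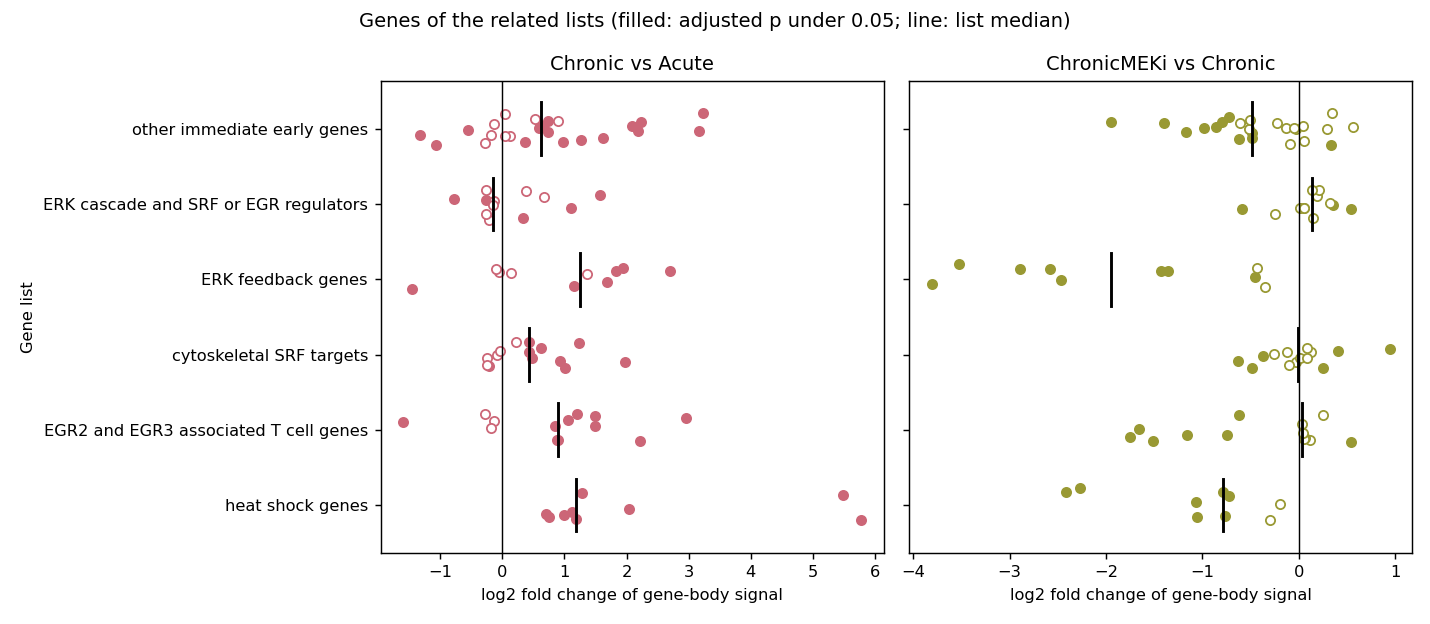
Difference of log2(gene-body signal + 5) for each tested gene of 6 related lists, 1 point per gene, in Chronic against Acute and ChronicMEKi against Chronic, with called genes filled and a line at the list median. The ERK feedback genes have medians of 1.26 in Chronic against Acute and -1.95 in ChronicMEKi against Chronic.

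Among members, Nab1 had the highest mean signal, not divided by its span, which at 43386 bases was the longest. Other genes were compared with it over the 9 libraries by Pearson r of log2(signal + 5). The 5 most like Nab1 were Grin3a (0.981), Usp47 (0.975), Spon1 (0.972), 2900011O08Rik (0.972) and Isg20 (0.971). The points share libraries and groups, so these values describe a common pattern over 3 groups.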

How the data were processed

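The authors deposited a signal per transcript for gene bodies and pause regions, 118482 rows in each table, with 9 library columns. Per the submitters' processing notes, tools included Trim Galore 0.6.10, STAR 2.7.0a and SAMtools 1.19.2 on mm10; the region borders, the counter and its use of strand are not given in the sources used here. Low values were whole multiples (within 0.01 of a step, below a signal of 100) of a step of 0.764 to 1.06 per library, shared by both tables; since 4 steps occurred more often than 1, they were not taken as reads and no count test was run.

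Rows were matched to GENCODE M21 (GRCm38): 117346 with their version, 383 without (Ier2 among them), and 753 not. Each of 37022 genes was represented by its strongest gene-body row on average. Genes reaching a signal of 50 in 3 or more libraries were scaled with trimmed, unweighted log ratios (30% of ratios and 5% of levels off each end) and tested as log2(signal + 5) with limma 3.58.1 (R 4.3.3; trend, robust, 1 mean per group), adjusted by Benjamini and Hochberg within each comparison at 0.05. The filter used the deposited signal where the plan had said scaled signal; filtering after scaling is among the alternatives. Tables, promoters and figures used Python 3.11.15, pandas 2.3.3, scipy 1.17.1 and matplotlib 3.10.9, and the scripts were tested on simulated data.

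One marker gene and 1 gene of a likeness list are not reported here. Members and lists were chosen with earlier results of these data known. Named genes are the members, Dusp6 and the 5 genes most like Nab1, the member with the highest mean signal. Up to 2 of the largest called rises and falls per list and comparison were added. Of these, the ones that bear on the members are printed. Alternatives covered scaling, pseudocount, filters, moderation, row choice, a replicate block and each library left out.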

Additional observations from a re-analysis of the deposited data

How the results depend on the processing

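Egr2, Ier3, Nab1 and Egr1 kept the direction of every called gene-body difference under all settings run. Counts of members called changed as follows. In the gene body, Chronic against Acute gave, instead of 5, 6 when scaled to library totals and on the deposited scale, and 4 with no filter and with the filter after scaling, an alternative chosen after seeing the data. ChronicMEKi against Chronic gave 3 instead of 4 with no filter, where Nab1 was lost. ChronicMEKi against Acute gave, instead of 3, 5 with library totals, 5 on the deposited scale and 4 with totals that leave out the ribosomal RNA-like locus, where Nab1 was gained. In the pause region, Chronic against Acute gave 2 instead of 1 with library totals, with no filter and with the longest row; ChronicMEKi against Chronic gave 2 instead of 1 with the longest row; ChronicMEKi against Acute gave, instead of 2, 1 with library totals, 1 on the deposited scale, 0 with no filter and 0 with plain moderation. With each library left out in turn, the count was 3 to 5 for Chronic against Acute in the gene body, 2 to 3 for ChronicMEKi against Acute in the gene body and 1 to 2 there in the pause region. The pause-region calls gained with the longest row were of Egr2, which passed the filter there only through its Chronic libraries. The cause of the moves in these counts was not tested.

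Signs that turned belonged to differences that were not called in the analysis reported. In the order library totals, deposited scale and totals without the ribosomal RNA-like locus, Egr2 in ChronicMEKi against Acute became -0.28, -0.24 and -0.066, Nab2 in Chronic against Acute -0.38, -0.36 and -0.051, and Srf in ChronicMEKi against Acute -0.29, -0.25 and -0.081. In the order of the first 2 of these, Ier2 in ChronicMEKi against Chronic became 0.015 and 0.039, Srf in Chronic against Acute -0.18 and -0.16, and pause-region Nab2 in ChronicMEKi against Chronic 0.17 and 0.12. With libraries left out, Egr2 ranged from -0.10 to 0.29 and Srf from -0.060 to 0.17 in ChronicMEKi against Acute. Nab2 ranged from -0.10 to 0.34 in Chronic against Acute and -0.40 to 0.027 in ChronicMEKi against Acute. Ier2 ranged from -0.12 to 0.17, -0.26 to 0.011 and -0.26 to 0.017 in Chronic against Acute, ChronicMEKi against Chronic and ChronicMEKi against Acute. In the pause region Nab2 ranged from -0.27 to 0.24 in ChronicMEKi against Chronic and -0.44 to 0.028 in ChronicMEKi against Acute, and Srf from -0.68 to 0.37 in Chronic against Acute.

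Over all genes, scaling set the split of calls. In the gene body 2875 were higher and 2528 lower in Chronic against Acute, but 1096 and 6846 with library totals, 1134 and 6713 on the deposited scale and 2096 and 3759 with totals that leave out that locus. The split was 1583 and 1219 in ChronicMEKi against Chronic, and 1769 and 741, 1979 and 721, and 1468 and 1217 in that order; it was 2291 and 1827 in ChronicMEKi against Acute, and 955 and 4965, 1023 and 4542, and 1572 and 3151. With no filter, gene-body calls were 1637 instead of 2802 in ChronicMEKi against Chronic and 2642 instead of 4118 in ChronicMEKi against Acute. Pause-region calls in Chronic against Acute were 823, with 1723 by totals, 494 with no filter and 545 without the first Acute library. In ChronicMEKi against Chronic they were 230, with 107 unfiltered, 110 with plain moderation and 109 to 279 with libraries left out, and in ChronicMEKi against Acute 457, with 206, 232 and 233 to 512. Pausing calls, 0 in all, were 1, 22, 24 and 1 in Chronic against Acute with pseudocounts of 0.5 and 20, no filter and only the groups compared, 2 in ChronicMEKi against Chronic with no filter, and 1 in ChronicMEKi against Acute with a pseudocount of 20.

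Libraries with the same replicate number showed no sign of pairing: deviations from group means correlated at -0.533 to 0.098 for the same number and at -0.367 to 0.513 otherwise. Deviations within groups of 3 libraries depend on each other, so these values cannot exclude a pairing. With the replicate number as a block, member counts stayed at 5, 4 and 3 in the gene body, 1, 1 and 2 in the pause region and 0 for pausing; all-gene calls were 5497, 2956 and 4263, against 5403, 2802 and 4118 without the block. Depth in reads is unknown, and 3 libraries per group limit what can be seen at the level of Egr3, Fosb and Fos in the chronic groups.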

Other observations

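Genes with a profile like those of Egr2 and Egr1 were read after the values had been seen, and are given as a description over 9 libraries. Those most like Egr2 by Pearson r of log2(signal + 5) were Srgn (0.994), Serpinb9 (0.994), Cd274 (0.989), Il10 (0.985) and Mir155hg (0.985). Cd274 encodes the checkpoint ligand PD-L1, Il10 an anti-inflammatory cytokine, and Mir155hg is the host gene of microRNA 155. Among those most like Egr1 were Bach2it1 (0.992), Stambpl1 (0.986), Fam20a (0.986) and Car12 (0.985).

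Heat shock genes moved in the same libraries as Egr2 and Ier3. Of 10 listed, 9 were tested: 9 rose and 0 fell in Chronic against Acute, 0 rose and 7 fell in ChronicMEKi against Chronic, and 5 rose and 0 fell in ChronicMEKi against Acute, where all genes had 33.9%, 17.6% and 25.8% called. Hspa1a and Hspa1b, near-identical copies whose split is uncertain, rose by 5.47 and 5.77 in Chronic over Acute libraries and fell by 2.41 and 2.27 with MEK inhibition. The part of a stress response in the values of the members was not tested.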
